A study of Mus musculus with 12 samples.

Results

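The 32 genes described here encode the enzymes and transporters of glycolysis, the oxygen-sensing factors that control them, and further genes switched on by low oxygen. They were listed by gene name from the 35999 gene symbols measured in the series, with earlier results of these data known, and all 32 had enough counts to be tested among 17940 tested genes. By role they comprised 3 genes of oxygen sensing, 3 of glucose uptake and phosphorylation, 8 of upper glycolysis, 5 of lower glycolysis, 3 of pyruvate and lactate handling, and 10 other targets of hypoxia-inducible factor. RNA was measured in whole subcutaneous AB1-HA tumours, a transplanted mouse mesothelioma, grown in male BALB/c mice 8 to 10 weeks old. The hosts of 6 tumours received PBS and those of the other 6 received anti-CD4 antibody at 100 µg, an agent that removes CD4+ T cells. Both were dosed on day -3, on day 0 when tumour cells were injected, and on day 7, and all tumours were taken on day 9. Each tumour was homogenised whole, so a level reflects tumour cells, infiltrating cells and neighbouring host tissue together, and fewer cells of a type cannot be told apart from less RNA per cell.

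Glycolysis splits glucose into pyruvate in the cytosol, and tumours often run it fast and send the pyruvate to lactate. Hypoxia-inducible factor (HIF) is a transcription factor made of an oxygen-labile alpha subunit, such as Hif1a, and a stable partner, Arnt. When oxygen is present, the prolyl hydroxylases of the Egln family mark the alpha subunit for destruction. When oxygen is short, the alpha subunit persists and HIF raises transcription of glucose transporters, nearly every glycolytic enzyme, Pdk1 and stress genes such as Bnip3 and Ndrg1. Hif1a itself is controlled mainly at the level of the protein, so its transcript is not a direct readout of HIF activity. HIF binds a short core sequence, ACGTG or GCGTG, in the regulatory DNA of its targets.

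RefSeq promoter windows on GRCm38.p6, which cover 250 bases before and 50 bases after a start site, were matched for 30 of the 32 genes. Sequences are shown for 6 genes: Pfkfb4 and Pfkfb3, the genes with the smallest p-values of the set, Hif1a, and Bnip3, Egln3 and Pgk1, which were picked after their values were seen because their levels varied together among tumours. Each is the stretch of 250 bases before the start, 5′ to 3′ on the gene's strand, with matches to ACGTG or GCGTG on either strand in capitals.
Bnip3, chr7:138909507-138909756, minus strand: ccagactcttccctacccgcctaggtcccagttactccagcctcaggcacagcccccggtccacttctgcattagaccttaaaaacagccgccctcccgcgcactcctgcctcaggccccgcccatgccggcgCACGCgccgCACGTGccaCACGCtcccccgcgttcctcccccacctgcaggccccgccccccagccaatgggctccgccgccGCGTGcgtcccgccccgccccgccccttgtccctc
Egln3, chr12:54203875-54204124, minus strand: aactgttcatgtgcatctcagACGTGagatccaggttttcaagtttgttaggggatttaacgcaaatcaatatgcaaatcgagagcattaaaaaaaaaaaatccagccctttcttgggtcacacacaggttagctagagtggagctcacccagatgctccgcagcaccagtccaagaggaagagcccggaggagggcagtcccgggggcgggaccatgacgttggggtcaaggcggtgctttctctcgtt
Pgk1, chrX:106186850-106187099, plus strand: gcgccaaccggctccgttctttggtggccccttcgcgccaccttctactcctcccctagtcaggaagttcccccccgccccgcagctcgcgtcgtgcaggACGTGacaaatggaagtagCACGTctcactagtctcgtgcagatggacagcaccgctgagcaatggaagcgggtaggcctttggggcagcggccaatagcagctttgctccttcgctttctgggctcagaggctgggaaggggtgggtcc
Pfkfb3, chr2:11553930-11554179, minus strand: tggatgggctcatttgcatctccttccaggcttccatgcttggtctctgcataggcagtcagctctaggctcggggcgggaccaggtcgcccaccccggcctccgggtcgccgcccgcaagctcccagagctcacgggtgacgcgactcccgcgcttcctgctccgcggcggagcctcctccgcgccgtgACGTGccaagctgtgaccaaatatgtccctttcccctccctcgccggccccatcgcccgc
Pfkfb4, chr9:108991652-108991901, plus strand: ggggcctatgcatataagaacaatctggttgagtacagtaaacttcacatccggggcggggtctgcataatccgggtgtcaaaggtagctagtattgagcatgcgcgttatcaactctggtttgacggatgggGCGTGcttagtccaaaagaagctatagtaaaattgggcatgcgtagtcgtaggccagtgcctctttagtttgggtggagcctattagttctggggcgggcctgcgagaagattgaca
Hif1a, chr12:73907617-73907866, plus strand: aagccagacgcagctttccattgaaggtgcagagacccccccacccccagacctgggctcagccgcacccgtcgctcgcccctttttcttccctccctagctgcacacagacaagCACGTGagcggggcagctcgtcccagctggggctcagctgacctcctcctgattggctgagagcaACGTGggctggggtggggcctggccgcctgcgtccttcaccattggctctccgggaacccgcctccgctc
Bnip3 had 5 matches, starting 117, 108, 107, 99 and 35 bases before the start site. The pair at 108 and 107 overlap, as both strands of the palindrome CACGTG hold the core. Pgk1 had 2 matches, on opposite strands, at 150 and 131 bases before the start. Egln3, Pfkfb3 and Pfkfb4 had 1 match each, at 229, 60 and 117 bases before it. Pfkfb3 alone of the 6 has a second start window in RefSeq (chr2:11502041-11502340, minus strand, not shown), with 4 matches, of which 3 lie 122, 53 and 52 bases before that start, the last pair as a palindrome, and 1 lies 37 bases after it. Hif1a, the factor's own gene, had 3, of which 2 overlap in a palindrome. Counting the first window of each gene, 24 of 30 (80%) held at least 1 match, against 56.6% of the 15720 windows of tested genes and 43.8% of all 32851 windows of 300 bases. The windows of the set were also richer in G and C, at 64.4% against 58.8% and 53.8%. A match is a description of letters and says nothing about binding in these tumours.

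The labels were checked first against the targeted cell type. Cd4 transcript stood at 6.31 ± 2.34 CPM in the PBS group and 1.31 ± 0.498 CPM in the anti-CD4 group (SD, n = 6), which is 20.8% of the PBS mean and -2.26 on the log2 scale (edgeR adjusted p = 0.00298, SE 0.28), and no anti-CD4 tumour reached the lowest PBS tumour. Levels are given as CPM, the counts of a gene scaled to a common library size. Library totals ran from 30746898 to 62061770 estimated counts and were larger in anti-CD4 tumours, with means of 46397008 (SD 10036401, n = 6) against 36082071 (SD 4027155, exact two-sided permutation p = 0.039). Of 8 mesothelial markers, 4 had enough counts to be tested, led by Msln at 126 CPM in PBS tumours, while the keratin genes Krt18 and Krt19 and the calretinin gene Calb2 were near 0. The labels do not say which mouse bore which tumour, so p-values measure the spread between these 12 tumours.

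None of the 32 genes passed the test between anti-CD4 and PBS tumours in either direction. Among all tested genes, 2.95% were called higher and 2.33% lower in anti-CD4 tumours (edgeR quasi-likelihood test, Benjamini-Hochberg adjusted p under 0.05). An unadjusted p under 0.05 was reached by 1 of the 32, Pfkfb4, whereas 28% of all tested genes reached it. For every one of the 32, the values of both groups overlapped, while 1.93% of all tested genes had every anti-CD4 tumour above every PBS tumour and 1.19% every one below. DESeq2, which called 7.57% of its tested genes higher and 6.66% lower, also called none of the 32. limma voom with sample weights called Tpi1 and Pgam1 higher and Pfkp, Pfkfb3 and Pfkfb4 lower, where it called 15.7% of all tested genes higher and 17.7% lower. The fitted log2 fold changes, anti-CD4 over PBS, were above 0 for 23 genes and below 0 for 9, with a median of 0.066 against 0 over all tested genes. They ran from -0.47 for Pfkfb3 to 0.18 for Pgk1.

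The intervals of the main fit bound how large a difference could have been missed for each gene singly. They were not adjusted jointly over the 32 genes. For all 32 genes the 95% interval of the fold change lay within a 2-fold change either way and for 27 within 1.5-fold. Hif1a (-0.074 to 0.19), Kdm3a (-0.16 to 0.089), Gpi1 (-0.030 to 0.23) and Pkm (-0.057 to 0.21) had narrow intervals on the log2 scale. The 5 genes whose interval went past 1.5-fold were Bnip3 (-0.55 to 0.90), Ndrg1 (-0.47 to 0.80), P4ha2 (-0.50 to 0.76), Ankrd37 (-0.95 to 0.34) and Pfkfb3 (-0.95 to 0.021).

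**Figure D1:**
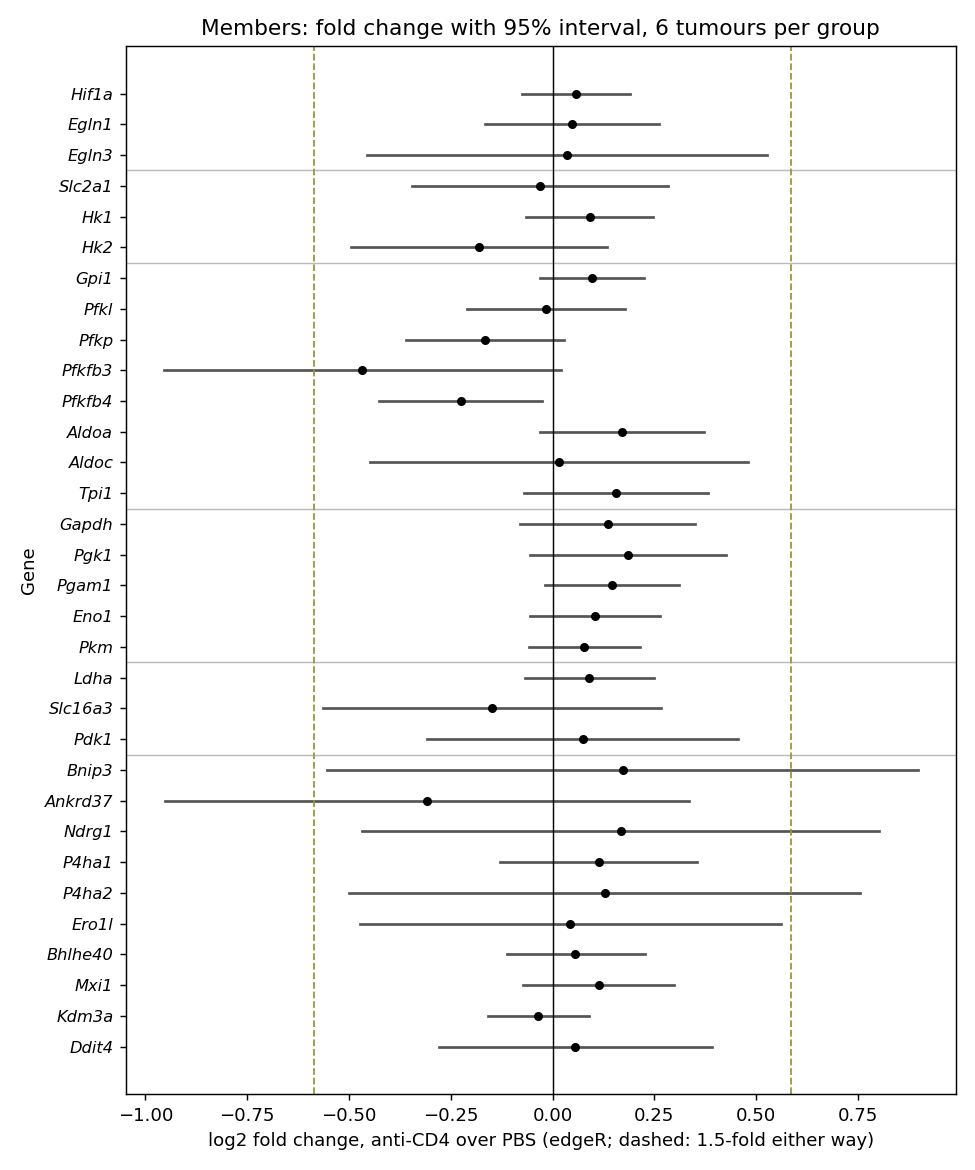
Log2 fold change of each of the 32 genes, anti-CD4 over PBS, on the x axis (points) with 95% intervals (lines) from edgeR, 6 tumours per group, with genes in rows grouped by role. All intervals but that of Pfkfb4 cross 0, and those of Bnip3, Ndrg1, P4ha2, Ankrd37 and Pfkfb3 extend past the dashed lines at 1.5-fold.

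Among the oxygen-sensing genes, Hif1a, the alpha subunit of the factor (chr12:73901375-73947530, GRCm38), was one of the steadiest. Hif1a stood at 145, 159.7, 142, 133, 133 and 141 CPM in PBS tumours 1 to 6 and at 126, 154, 149, 156, 146 and 158 CPM in anti-CD4 tumours 1 to 6. The highest tumour was PBS 2 and the lowest anti-CD4 1, and the log2 fold change was 0.058 (SE 0.062, 95% interval -0.074 to 0.19, edgeR adjusted p = 0.557). Egln1, the main hydroxylase that marks HIF alpha in oxygen, stood at 165, 149, 139, 192, 143 and 115 CPM in PBS tumours 1 to 6 and at 158, 149, 164, 176, 141 and 146 CPM in anti-CD4 tumours 1 to 6. PBS 4 held the highest value of Egln1 and PBS 6 the lowest, with anti-CD4 tumours between them, and the log2 fold change was 0.047 (SE 0.10, 95% interval -0.17 to 0.26, edgeR adjusted p = 0.783). Egln3, a hydroxylase that HIF itself induces, varied far more, from 11.98 to 31.2 CPM in PBS tumours (median 18.8) and from 13.8 to 29.8 CPM in anti-CD4 tumours (median 18.3). PBS 4 and anti-CD4 4 were the high tumours of their groups, each more than 1.5 times the mean of the others, and the log2 fold change was 0.036 (95% interval -0.46 to 0.53).

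Of the genes that bring glucose into the cell and trap it, Slc2a1, which encodes the transporter GLUT1, ranged from 31.9 to 52.1 CPM in PBS tumours (median 37.5) and from 29.2 to 52.8 CPM in anti-CD4 tumours (median 38.5). The log2 fold change of Slc2a1 was -0.031 (95% interval -0.34 to 0.28). Hk1, the widely expressed hexokinase, stood at 135, 105, 113, 94.7, 108 and 110.4 CPM in PBS tumours 1 to 6 and at 110.3, 118, 118, 110, 125 and 129 CPM in anti-CD4 tumours 1 to 6. The groups of Hk1 overlapped, with PBS 1 highest and PBS 4 lowest, and the log2 fold change was 0.091 (SE 0.073, 95% interval -0.064 to 0.25, edgeR adjusted p = 0.42). Hk2, the hexokinase that HIF induces, stood at 65.3, 66.9, 53.1, 72.8, 61.9 and 53.6 CPM in PBS tumours 1 to 6 and at 57.1, 43.4, 65.6, 75.3, 40.96 and 47.2 CPM in anti-CD4 tumours 1 to 6. Here the anti-CD4 group was split, with anti-CD4 4 above every PBS tumour and anti-CD4 2, 5 and 6 below every one, and the SD was 13.6 CPM against 7.76 CPM in PBS. The log2 fold change of Hk2 was -0.18 (SE 0.15, 95% interval -0.49 to 0.13, edgeR adjusted p = 0.427).

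In upper glycolysis, which spends ATP to make triose phosphates, the regulatory enzymes Pfkfb3 and Pfkfb4 gave the most negative differences of the role. Both make fructose 2,6-bisphosphate, the activator of phosphofructokinase. Pfkfb4 (chr9:108991778-109032228) stood at 14.5, 19.2, 16.8, 16.9, 16.8 and 18.9 CPM in PBS tumours 1 to 6 and at 16.1, 12.3, 15.5, 17.1, 14.4 and 12.8 CPM in anti-CD4 tumours 1 to 6. Anti-CD4 2, 6 and 5 were the lowest of the 12 and PBS 2 and PBS 6 the highest, and the log2 fold change was -0.23 (SE 0.094, 95% interval -0.43 to -0.025, edgeR adjusted p = 0.137). Pfkfb3 (chr2:11471433-11554077) stood at 20.4, 28.3, 21.4, 23.4, 22.2 and 28.7 CPM in PBS tumours 1 to 6 and at 20.7, 11.1, 18.3, 29.5, 13.3 and 11.7 CPM in anti-CD4 tumours 1 to 6. The anti-CD4 values of Pfkfb3 spanned 2.66-fold, with anti-CD4 4 above all PBS tumours and anti-CD4 2, 6 and 5 far below them, while PBS values spanned 1.41-fold. The log2 fold change of Pfkfb3 was -0.47 (SE 0.22, 95% interval -0.95 to 0.021, edgeR adjusted p = 0.196). It passed the test when anti-CD4 4 was left out, at -0.69 (edgeR adjusted p = 0.0455), so the outcome of the test turned on 1 tumour.

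The phosphofructokinase Pfkp, which commits sugar to glycolysis, ranged from 47.04 to 56.4 CPM in PBS tumours (median 51.4) and from 37.5 to 57.1 CPM in anti-CD4 tumours (median 45.3), with a log2 fold change of -0.17 (SE 0.091, 95% interval -0.36 to 0.028, edgeR adjusted p = 0.242). Pfkl, the liver-type subunit of the same enzyme, gave -0.017 (95% interval -0.21 to 0.18). Gpi1, the isomerase of glucose 6-phosphate, ranged from 239.8 to 285 CPM in PBS tumours (median 253) and from 248 to 297 CPM in anti-CD4 tumours (median 282), a log2 fold change of 0.098 with one of the narrowest intervals. Aldoa, the main aldolase, ranged from 452 to 598 CPM in PBS tumours (median 538) and from 510.1 to 738 CPM in anti-CD4 tumours (median 593), with anti-CD4 4 highest of all 12. Its log2 fold change was 0.17 (SE 0.094, 95% interval -0.031 to 0.37, edgeR adjusted p = 0.246). Aldoc, a minor aldolase, lay between 1.72 and 4.27 CPM in all 12 tumours (log2 fold change 0.016). Tpi1, which interconverts the triose phosphates, ranged from 306 to 439 CPM in PBS tumours (median 323) and from 308 to 456 CPM in anti-CD4 tumours (median 379). PBS 1 stood well above the other PBS tumours for Tpi1, anti-CD4 6 was the highest of all, and the log2 fold change was 0.16 (SE 0.10, 95% interval -0.069 to 0.38, edgeR adjusted p = 0.339).

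The 5 genes of lower glycolysis, which repays ATP and ends in pyruvate, all had log2 fold changes above 0, from 0.078 for Pkm to 0.18 for Pgk1 with a median of 0.14, and none passed. With the library total as a covariate, 3 of the 5 turned below 0, Gapdh at -0.11, Eno1 at -0.040 and Pkm at -0.026. Pgk1, phosphoglycerate kinase (chrX:106187100-106203699), stood at 314, 248, 242, 364, 249.5 and 239.9 CPM in PBS tumours 1 to 6 and at 308, 337, 282, 367, 264 and 326 CPM in anti-CD4 tumours 1 to 6. PBS 4 and anti-CD4 4 were its 2 highest tumours, and the log2 fold change was 0.18 (SE 0.11, 95% interval -0.056 to 0.43, edgeR adjusted p = 0.289). Pgam1, phosphoglycerate mutase, stood at 309, 242, 259, 247, 225 and 236 CPM in PBS tumours 1 to 6 and at 248, 304, 262, 292, 270.1 and 303 CPM in anti-CD4 tumours 1 to 6. The highest Pgam1 value belonged to PBS 1, and the log2 fold change was 0.15 (SE 0.077, 95% interval -0.018 to 0.31, edgeR adjusted p = 0.225). Without PBS 1, Pgam1 passed the test at 0.22 (edgeR adjusted p = 0.0447). Pkm, pyruvate kinase, ranged from 775 to 941 CPM in PBS tumours (median 788) and from 789.9 to 959 CPM in anti-CD4 tumours (median 841). Eno1, enolase, had a log2 fold change of 0.10 (95% interval -0.056 to 0.26). Gapdh, the dehydrogenase of glyceraldehyde 3-phosphate, ranged from 198 to 281 CPM in PBS tumours (median 245) and from 215 to 303 CPM in anti-CD4 tumours (median 289), with PBS 4 lowest, and its log2 fold change was 0.14 (95% interval -0.079 to 0.35).

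At the pyruvate branch, Ldha, which turns pyruvate into lactate, stood at 437, 395, 346, 422, 378 and 358 CPM in PBS tumours 1 to 6 and at 404, 417, 392, 484, 366 and 425 CPM in anti-CD4 tumours 1 to 6. Anti-CD4 4 was the highest tumour and PBS 3 the lowest, and the log2 fold change of Ldha was 0.090 (SE 0.074, 95% interval -0.068 to 0.25, edgeR adjusted p = 0.431). Slc16a3, which encodes the lactate exporter MCT4, stood at 14.8, 11.1, 13.3, 13.4, 12.4 and 13.2 CPM in PBS tumours 1 to 6 and at 11.8, 9.59, 17.9, 15.8, 7.63 and 8.06 CPM in anti-CD4 tumours 1 to 6. Anti-CD4 5, 6 and 2 were below every PBS tumour and anti-CD4 3 and 4 above every one, and the log2 fold change was -0.15 (SE 0.19, 95% interval -0.56 to 0.27, edgeR adjusted p = 0.636). Pdk1, the kinase that shuts pyruvate dehydrogenase under low oxygen, ranged from 29.5 to 60.5 CPM in PBS tumours (median 35.5) and from 31.1 to 56.1 CPM in anti-CD4 tumours (median 40.2), with PBS 4 and anti-CD4 4 highest (log2 fold change 0.074, 95% interval -0.31 to 0.46).

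Among the other HIF targets, Mxi1, a repressor that opposes Myc, had the smallest p of its role. Mxi1 stood at 45.2, 38.5, 40.9, 52.8, 45.7 and 34.9 CPM in PBS tumours 1 to 6 and at 45.2, 51.6, 44.4, 44.5, 49.6 and 43.9 CPM in anti-CD4 tumours 1 to 6. PBS 4 was highest and PBS 6 lowest, and the log2 fold change of Mxi1 was 0.11 (SE 0.087, 95% interval -0.072 to 0.30, edgeR adjusted p = 0.4). Ankrd37, a small ankyrin-repeat protein known as a strong HIF target, stood at 1.87, 1.92, 1.47, 3.41, 1.66 and 1.15 CPM in PBS tumours 1 to 6 and at 2.13, 1.19, 2.04, 1.95, 0.68 and 1.27 CPM in anti-CD4 tumours 1 to 6. The level was low throughout, and the log2 fold change was -0.31 (SE 0.30, 95% interval -0.95 to 0.34, edgeR adjusted p = 0.515). Bnip3, which drives removal of mitochondria, stood at 34.8, 25.9, 26.1, 73.6, 32.1 and 21.7 CPM in PBS tumours 1 to 6 and at 45.9, 36.04, 31.9, 69.6, 26.1 and 31.4 CPM in anti-CD4 tumours 1 to 6. The tumours numbered 4 were 2.61 times the mean of the other PBS tumours and 2.03 times the mean of the other anti-CD4 tumours. The log2 fold change of Bnip3 was 0.17 (SE 0.33, 95% interval -0.55 to 0.90, edgeR adjusted p = 0.758), and it passed the test in none of the fits without these tumours. It read 0.51 without PBS 4, -0.058 without anti-CD4 4 and 0.28 without both (edgeR adjusted p = 0.216, 0.917 and 0.285), so its sign depended on which tumour was left out.

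Ndrg1, a stress gene strongly raised by hypoxia, stood at 108, 74.9, 71.2, 175, 90.3 and 57.3 CPM in PBS tumours 1 to 6 and at 127, 99.2, 87.7, 174, 78.3 and 81.6 CPM in anti-CD4 tumours 1 to 6. Ero1l, an oxidase that forms disulphide bonds in the endoplasmic reticulum, ranged from 69.98 to 180.1 CPM in PBS tumours (median 81.7) and from 80.1 to 143 CPM in anti-CD4 tumours (median 93.1). For both genes PBS 4 was more than 2 times the mean of the other PBS tumours. The collagen prolyl hydroxylases P4ha1 and P4ha2, which stabilise the collagen helix, had log2 fold changes of 0.11 and 0.13. P4ha2 ranged from 6.55 to 17.9 CPM in PBS tumours (median 9.14) and from 7.05 to 17.01 CPM in anti-CD4 tumours (median 8.84). The 8 fibroblast markers, all tested and none at 0, summed to 14870 to 27080 CPM in the PBS group and 26850 to 34290 CPM in the anti-CD4 group, and their part in the collagen hydroxylase values was not tested. Bhlhe40, a repressor that HIF induces, Kdm3a, a histone demethylase, and Ddit4, an inhibitor of mTOR signalling, had log2 fold changes of 0.056, -0.035 and 0.056. Kdm3a was the steadiest of the whole set from tumour to tumour, with a within-group SD of 0.096 on the log2 scale.

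**Figure D2:**
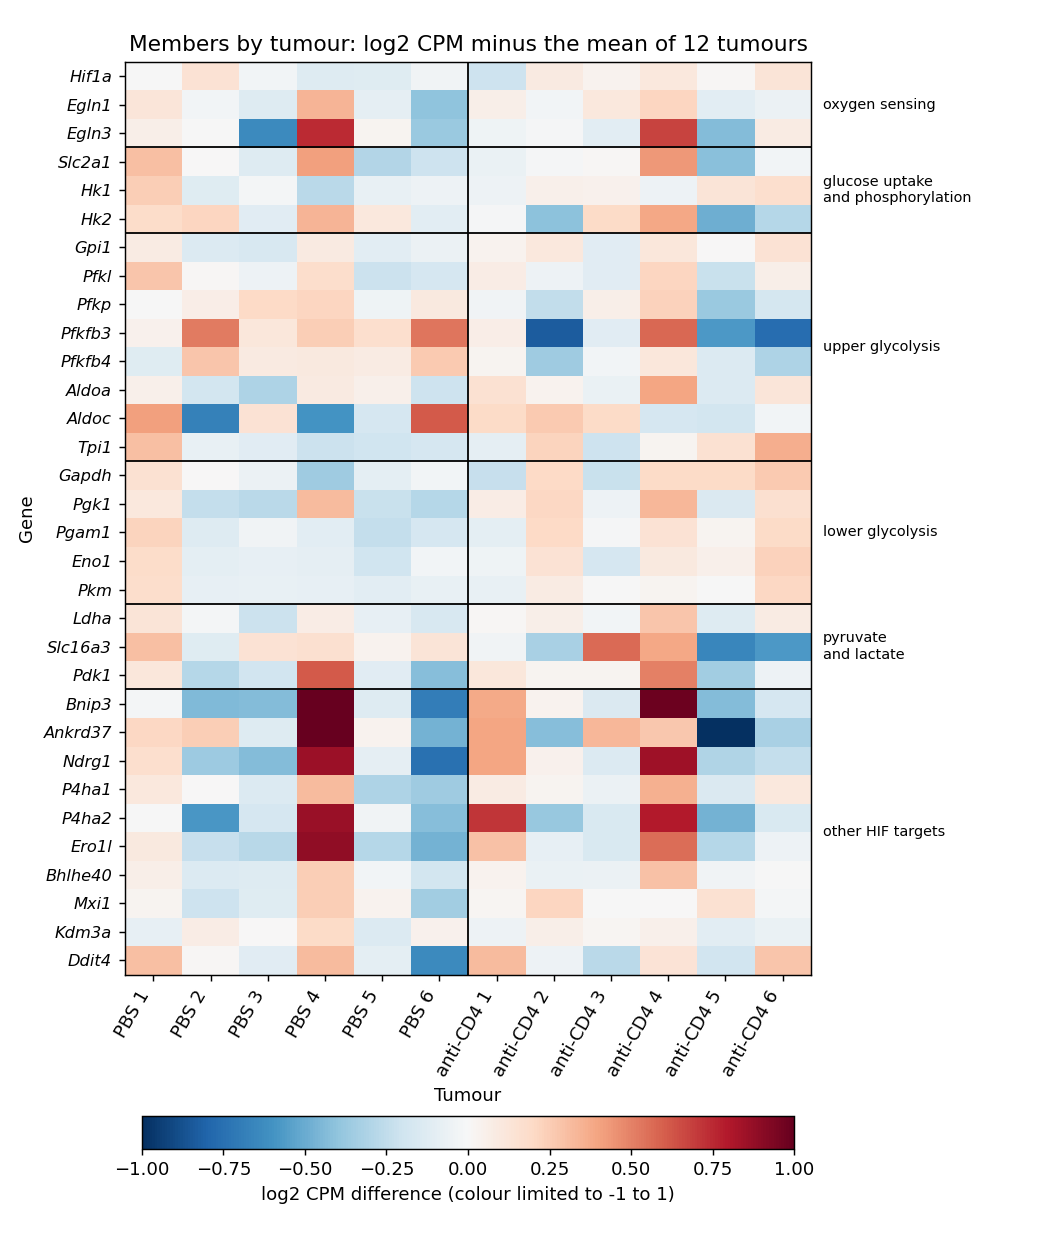
Log2 CPM of each of the 32 genes (rows, grouped by role) in each of the 12 tumours (columns), as the difference from the gene's mean over 12 tumours, with red above and blue below. PBS 4 and anti-CD4 4 are red across most of the other HIF targets, and anti-CD4 2, 5 and 6 are blue for Pfkfb3, Hk2 and Slc16a3.

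Tumours of the same group differed from each other in a pattern that many of these genes shared. Within PBS, tumour 4 was the highest for 19 of the 32 genes (59.4%), against 19.9% of all tested genes, and within anti-CD4, tumour 4 was the highest for 18 (56.2%), against 20.4%. For the 10 other HIF targets, PBS 4 was the highest PBS tumour for all 10. It was the highest of all 12 for 8, against 1846 of the 17940 tested genes. Anti-CD4 4 was the highest of its group for 6 of the 10. The low end was held by PBS 6, lowest of its group for 8 of these 10 against 19.2% of all tested genes, and by anti-CD4 5, lowest for 7. Anti-CD4 5 was lowest in its group for 19 of all 32 genes (59.4%), against 12.2% of all tested genes. The shared number 4 carries no pairing in the labels, and both tumours were singled out after their values were seen. At least 2-fold differences between the highest and lowest tumour occurred in both groups for 5 genes, Egln3, Bnip3, Ankrd37, Ndrg1 and P4ha2. The median within-group SD of the 32 genes was 0.2 on the log2 scale, against 0.194 over all tested genes.

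Not every gene followed the tumours numbered 4. PBS 4 held the lowest PBS value of Gapdh, Tpi1, Hk1 and Hif1a (12.5% of the 32, against 22.9% of all tested genes). PBS 1 was the highest PBS tumour for 4 of the 5 genes of lower glycolysis, against 25% of all tested genes. Anti-CD4 6 was the highest anti-CD4 tumour for 3 of those 5, against 17.3%. Of all tested genes, PBS 4 was highest in its group for 19.9% and anti-CD4 4 for 20.4%. In a list of 34 further HIF targets, none of them in the set of 32, these counts were 19 (55.9%) and 22 (64.7%). Car9, a carbonic anhydrase among them that was picked after its values were seen, stood at 12.1, 2.71, 6.33, 38.6, 11.9 and 4.37 CPM in PBS tumours 1 to 6 and at 27.4, 14.4, 7.90, 50.8, 4.04 and 8.29 CPM in anti-CD4 tumours 1 to 6.

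Other tissues also differed in the same tumours. The 12 skeletal muscle markers, all tested and none at 0, summed to 219 to 1703 CPM in the PBS group and 355 to 1823 CPM in the anti-CD4 group. PBS 4 held 1136 CPM of muscle markers, PBS 5 1703 CPM and anti-CD4 4 1823 CPM. PBS 5 was the highest PBS tumour for 0 of the 32 genes, against 11.2% of all tested genes. The 8 adipocyte markers, likewise all tested with none at 0, summed to 100.1 to 366 CPM in the PBS group and 27.5 to 639.5 CPM in the anti-CD4 group, with anti-CD4 4 the highest. With the muscle markers as a covariate, no gene of the 32 passed, the median log2 fold change was 0.003 and 16 were above 0. PBS 4 also had the lowest sums of the 8 proliferation markers (1209 CPM, range 1209 to 1731 CPM in the PBS group and 1430 to 1891 CPM in the anti-CD4 group) and of the 8 neutrophil markers, 5 of them tested (90.3 CPM, range 90.3 to 464 CPM in the PBS group and 283 to 512 CPM in the anti-CD4 group), and the smallest library total. Its sums of the 9 macrophage markers, all tested (937 CPM), and of the 8 mesothelial markers (126 CPM) were also the lowest of the 12. Singly, Adgre1, Csf1r, Cd68 and C1qc were lowest of the 12 in PBS 4, whereas Fcgr1, C1qa and C1qb were lower in anti-CD4 2. Mrc1 (235.5 CPM) and Mertk (23.5 CPM) were above their PBS medians in PBS 4. Msln (94.7 CPM) made up most of the mesothelial sum of PBS 4, and Wt1 (2.001 CPM) and Pdpn (26.95 CPM) were not lowest of the PBS group there. Mmp9 made up most of each neutrophil sum, at 72.6 CPM in PBS 4, and the other neutrophil markers did not share 1 order. In PBS 4, Csf3r was lowest of the PBS group (9.85 CPM), Cxcr2 lay within the PBS range (6.38 CPM) and Retnlg was highest of the 12 (1.16 CPM). Anti-CD4 4 had the lowest sums of its group for mesothelial (133 CPM) and proliferation markers (1430 CPM, with anti-CD4 1 close at 1444 CPM). Of the proliferation markers, Mki67 and Cdk1 were lowest of the group in anti-CD4 4 and the others in anti-CD4 1. Most of the mesothelial sum was Msln (92.6 CPM in anti-CD4 4), whereas Pdpn was highest of the 12 in anti-CD4 4 (37.5 CPM). Anti-CD4 4 had the highest sums of the 12 for fibroblast markers (34290 CPM) and for the 8 endothelial markers, all tested (319.6 CPM). Col1a1, Col1a2 and Col3a1 made up most of the fibroblast sum. These collagens, Dcn, Lum and Fap were highest of the 12 in anti-CD4 4, but Pdgfra (575.8 CPM) and Pdgfrb (240.4 CPM) were not. Of the endothelial markers, Vwf (75.96 CPM), Tek and Eng were highest of the 12 in anti-CD4 4. Cdh5, Kdr and Emcn were highest in anti-CD4 6, and Pecam1 and Tie1 in PBS 2. The part of these tissues in the pattern of the tumours numbered 4 was not tested.

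**Figure D3:**
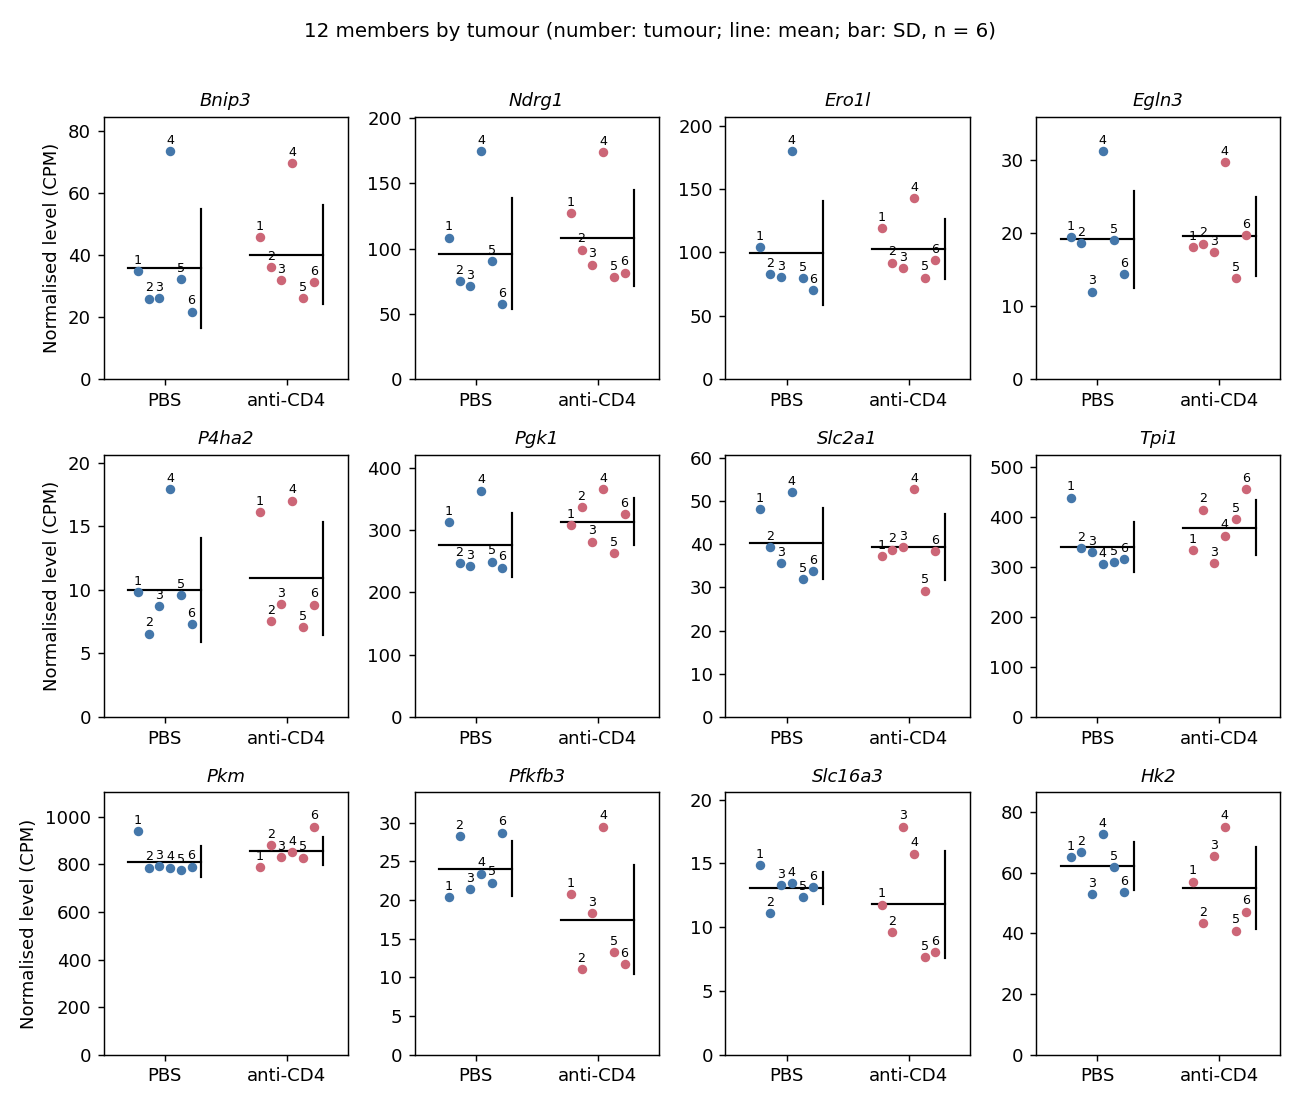
Normalised level in CPM (y axes, from 0) of 12 of the 32 genes in each tumour, PBS in blue and anti-CD4 in red, with tumour numbers beside the points, group means as lines and SD as bars (n = 6). Tumour 4 of each group is highest for Bnip3, Ndrg1, Ero1l, Egln3, P4ha2, Pgk1 and Slc2a1, whereas Tpi1 and Pkm are highest in PBS 1 and anti-CD4 6, and Pfkfb3, Slc16a3 and Hk2 are low in anti-CD4 2, 5 and 6.

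A second set of genes divided the anti-CD4 tumours. Hk2, Pfkp, Pfkfb3, Pfkfb4 and Slc16a3 each had anti-CD4 2, 5 and 6 as the 3 lowest of all 12 tumours, which is 5 of 32 genes (15.6%) against 6.77% of all tested genes. These 3 tumours were named after the values were seen, so no test is given. The sum of the 9 T cell markers, all tested and none at 0, was also lowest in these tumours, at 15.4, 12.8 and 8.82 CPM. It was 17.7, 29.4 and 40.99 CPM in anti-CD4 1, 3 and 4 and 31.6 to 67.2 CPM in PBS. Singly, Cd5, Cd28, Zap70 and Cd8a were lower in anti-CD4 1 than in anti-CD4 2. Among the tested neutrophil markers, Csf3r and Cxcr2 also had these tumours as the 3 lowest of all 12, while S100a8, Retnlg and Mmp9 did not. The part of T cells or neutrophils in the values of Hk2, Pfkp, Pfkfb3, Pfkfb4 and Slc16a3 was not tested.

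Related genes outside the set were read from lists of the same pathways. Of 10 genes at the entry of pyruvate to mitochondria, 3 (30%) rose in anti-CD4 tumours and none fell (edgeR), where 2.95% of all tested genes were called higher and 2.33% lower. DESeq2 called 4 of the 10 higher, against 7.57% of all its tested genes, and limma voom 6, against 15.7%. The median log2 fold change of the 10 was 0.22 against 0 over all tested genes, but the list mixes opposing roles. Pdk2, Pdk3 and Pdk4, kinases that like Pdk1 shut pyruvate dehydrogenase, had log2 fold changes of 0.24, 0.25 and 0.53, and none of them passed with edgeR (adjusted p = 0.34, 0.0606 and 0.512). Mpc1, a subunit of the mitochondrial pyruvate carrier, stood at 27.4, 27.5, 26.1, 27.6, 29.2 and 25.8 CPM in PBS tumours 1 to 6 and at 29.8, 33.9, 34.4, 37.4, 32.8 and 32.9 CPM in anti-CD4 tumours 1 to 6. Every anti-CD4 tumour was above every PBS tumour for Mpc1, and it rose by 0.30 (SE 0.058, 95% interval 0.17 to 0.42, edgeR adjusted p = 0.021) on the log2 scale. Pdha1, the catalytic subunit of pyruvate dehydrogenase, ranged from 128 to 161 CPM in PBS tumours (median 146) and from 156 to 173 CPM in anti-CD4 tumours (median 168) and rose by 0.20 (SE 0.052, 95% interval 0.095 to 0.32, edgeR adjusted p = 0.0397). Pdp1, the phosphatase that switches that enzyme on, ranged from 30.8 to 40.98 CPM in PBS tumours (median 36.4) and from 39.7 to 52.9 CPM in anti-CD4 tumours (median 44.9) and rose by 0.32 (SE 0.078, 95% interval 0.15 to 0.49, edgeR adjusted p = 0.0369). PBS 1 overlapped the anti-CD4 range of Pdha1, and PBS 2 and 5 that of Pdp1.

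Of 14 genes of the HIF machinery, 1 (7.14%) rose, Arnt, and none fell with edgeR (median 0.059), while DESeq2 called 2 higher and 1 lower and limma voom 4 higher and 2 lower. Over all tested genes, edgeR called 2.95% higher and 2.33% lower, DESeq2 7.57% and 6.66%, and limma voom 15.7% and 17.7%. Arnt, the stable partner of the alpha subunits, ranged from 111 to 132 CPM in PBS tumours (median 122) and from 129.8 to 139.7 CPM in anti-CD4 tumours (median 137) and rose by 0.17 (SE 0.045, 95% interval 0.077 to 0.27, edgeR adjusted p = 0.0423) on the log2 scale. Of the 34 further HIF targets, 1 (2.94%) rose, Angptl4, and none fell with edgeR (median 0.20), a share near the 2.95% of all tested genes called higher, while DESeq2 called 4 higher and 1 lower and limma voom 8 higher and 1 lower. Angptl4, a secreted inhibitor of lipoprotein lipase, ranged from 30.4 to 37.3 CPM in PBS tumours (median 33.1) and from 35.8 to 58.4 CPM in anti-CD4 tumours (median 47.96) and rose by 0.50 (SE 0.11, 95% interval 0.27 to 0.73, edgeR adjusted p = 0.0295). Calls on these 5 genes were close to the threshold. Leaving out 1 tumour at a time kept the call of Mpc1 in 9 of 12 fits, Angptl4 in 6, Pdp1 in 3, Arnt in 3 and Pdha1 in 2. The call of Mpc1 was lost without anti-CD4 2, 5 or 6. The call of Angptl4 was lost without PBS 2, 3, 5 or 6 or anti-CD4 2 or 5. That of Pdp1 held only without PBS 1, PBS 2 or anti-CD4 1, that of Arnt only without PBS 1, PBS 4 or anti-CD4 1, and that of Pdha1 only without PBS 1 or anti-CD4 1. DESeq2 and limma voom also called all 5 higher. All 5 calls were lost with the library total as a covariate, where adjusted p ran from 0.199 for Pdp1 to 0.349 for Pdha1 (edgeR). The log2 fold changes in that fit were 0.38 for Pdp1, 0.27 for Mpc1, 0.15 for Pdha1, 0.17 for Arnt and 0.49 for Angptl4. Upper quartile scaling ended the calls of Pdha1, Pdp1 and Arnt (edgeR adjusted p = 0.0528, 0.0556 and 0.115), testing without a filter those of Pdha1 and Arnt, and thinned counts that of Arnt. Leaving out both PBS 4 and anti-CD4 4 ended those of Pdha1, Pdp1 and Angptl4 (edgeR adjusted p = 0.0788, 0.0699 and 0.06). Without both anti-CD4 3 and 4, those of Pdha1, Pdp1 and Arnt were lost (edgeR adjusted p = 0.074, 0.0616 and 0.0543).

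None of the 18 other glycolysis genes tested, of 22 listed, passed with edgeR, 0 had an unadjusted p under 0.05, DESeq2 called 0, and limma voom called Bsg, Pgm2 and Slc16a1 higher. Adpgk, an ADP-dependent glucokinase, and Slc16a1, which encodes the lactate transporter MCT1, had the smallest p, with log2 fold changes of -0.089 and 0.12 (edgeR adjusted p = 0.207 and 0.274). None of 7 genes of the pentose phosphate pathway, which branches from glucose 6-phosphate, passed with edgeR, 1 had an unadjusted p under 0.05, DESeq2 called Rpe higher, and limma voom called Rpe and G6pdx higher. Rpe, an epimerase of that pathway, had a log2 fold change of 0.18 and G6pdx, its entry enzyme, one of 0.13 (edgeR adjusted p = 0.0801 and 0.382). Of all tested genes, DESeq2 called 7.57% higher and limma voom 15.7%.

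**Figure D4:**
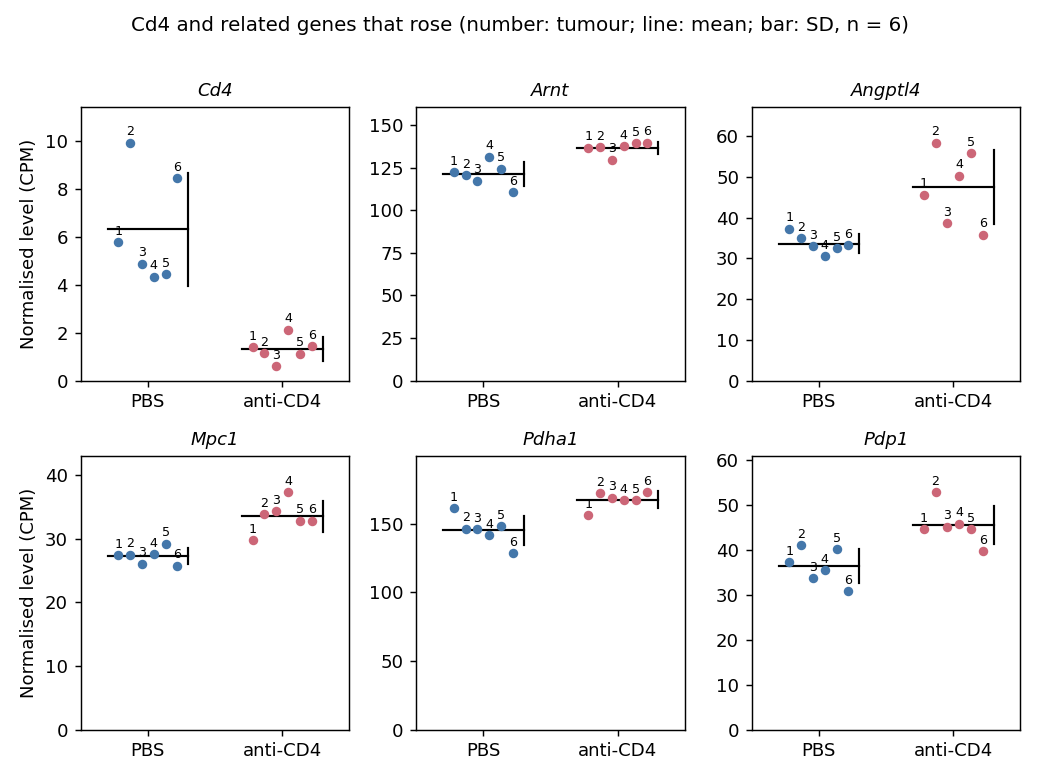
Normalised level in CPM (y axes, from 0) of Cd4 and of the 5 related genes that rose, in each tumour, with tumour numbers beside the points, group means as lines and SD as bars (n = 6 per group). All anti-CD4 values of Cd4 lie below the PBS values and all those of Mpc1 above them, whereas the other 4 genes overlap between groups.

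Per transcript length, the levels of the 32 genes spanned a wide range. Aldoa stood at 344 ± 40.0 CPM per kb in PBS and 387 ± 52.1 in anti-CD4 tumours, Pkm at 334 ± 26.1 CPM per kb in PBS and 352 ± 24.0 in anti-CD4 tumours, and Ldha at 215 ± 19.7 CPM per kb in PBS and 228 ± 22.1 in anti-CD4 tumours (SD, n = 6). At the other end, Pfkfb3 stood at 5.01 ± 0.745 CPM per kb in PBS and 3.63 ± 1.47 in anti-CD4 tumours, Slc16a3 at 3.01 ± 0.288 CPM per kb in PBS and 2.72 ± 0.973 in anti-CD4 tumours and Aldoc at 1.02 ± 0.37 CPM per kb in PBS and 1.04 ± 0.141 in anti-CD4 tumours. Some neighbours in this order, such as Aldoa and Pkm, Pfkfb3 and Pfkfb4, or Slc2a1 and Pfkp, did not differ beyond their SDs. Others, such as Pkm and Ldha, did. Together the 14 glycolytic enzyme genes of the set, near-identical copies left out, took 0.368% to 0.432% of all counts in each tumour.

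**Figure D5:**
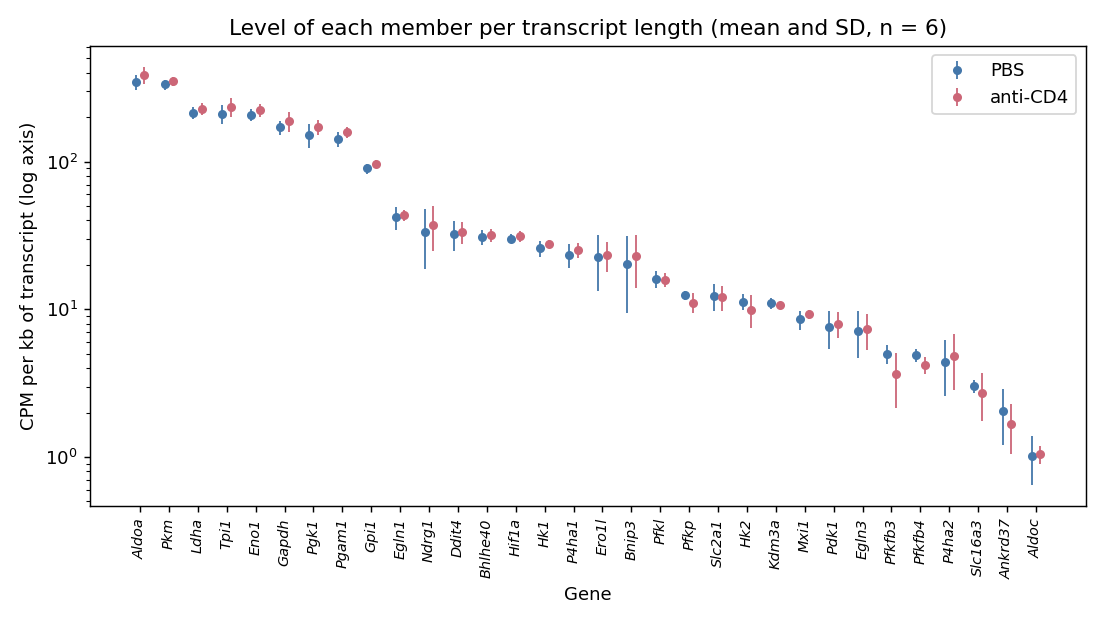
Level of each of the 32 genes per transcript length, in CPM per kb on a log axis, as the mean with SD over 6 PBS tumours (blue) and 6 anti-CD4 tumours (red). With near-identical copies left out, Aldoa and Pkm lead in both groups, and Aldoc is last.

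In several families 1 member held most of the transcripts. Per transcript length, Aldoa made up 99.7% of the aldolase transcripts in both groups and Ldha 97.2% ± 0.53 of the lactate dehydrogenases in PBS tumours (SD, n = 6). Slc2a1 made up 78.6% ± 6.6 of 3 glucose transporters, and Hk1 60.4% ± 3.1 of 3 hexokinases in PBS against 67.2% ± 8.5 in anti-CD4 tumours, a difference within the spread. The HIF hydroxylases split into 53% Egln1, 38.1% Egln2 and 8.94% Egln3 in PBS tumours. Among lactate transporters, Slc16a1 took 81.3% ± 1.6 and the hypoxia-induced Slc16a3 11.3% ± 1.2 in PBS tumours. Other families were more evenly divided. The phosphofructokinases split into 37.3% Pfkl, 33.3% Pfkm and 29.4% Pfkp in PBS tumours, and of the PFKFB kinases Pfkfb3 took 29.2%, Pfkfb4 28.8% and Pfkfb2 29.6%. Pdk3, at 45%, outweighed Pdk1, at 25.2%, among the pyruvate dehydrogenase kinases per transcript length. All these shares rest on the longest coding transcript of each gene (2115 bases for Pdk3 and 5185 for Pdk1). Without division by length the order is reversed, at 27.8 CPM for Pdk3 and 39.4 CPM for Pdk1 in PBS tumours. The order of Pfkm and Pfkp also reverses, at 42.1 and 51.7 CPM.

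The counts of Gapdh and Eno1 are uncertain, because near-identical copies share their reads. Gapdh shared 84.1% of its 31-base words with other genes, and 74.9% to 78.6% of the counts of Gapdh and its 110 copies were assigned to the copies. For Eno1, 43.1% to 48.8% of the counts lay in 4 copies, of which Eno1b shares 75.6% of the words of Eno1. With copies summed, the log2 fold change was 0.18 for Gapdh and 0.095 for Eno1 (edgeR adjusted p = 0.257 and 0.502). The levels per length of Gapdh and Eno1 above leave the copies out, and the lead of Aldoa depends on that. With the counts of copies added, Gapdh stood at 732 ± 73.8 CPM per kb and Eno1 at 377 ± 50.9 CPM per kb in PBS tumours, and at 827 ± 129 and 403 ± 42.2 CPM per kb in anti-CD4 tumours (SD, n = 6). Summed Gapdh was then above Aldoa, while Eno1 and Aldoa lay within their SDs. Copies of Gpi1, Aldoa, Pgk1, Pgam1, Pkm, Ldha and Bnip3 held less than 1% of the counts in any tumour. Reads from genes on the opposite strand also cannot be told apart where exons overlap, as no source used here gives the strand setting. Such overlaps cover 748 bases between Pfkp and Pitrm1, 741 between Gpi1 and Gm26762, 504 between Bnip3 and Gm45507, 419 between Ndrg1 and Gm17035 and 349 between Ankrd37 and Lrp2bp.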

How the data were processed

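RNA of 12 tumours, depleted of ribosomal and globin RNA, was read as 100-base pairs, per the labels' protocols. Named in the submitters' processing notes are bcl2fastq 2.20.0.422, kallisto without a version and GRCm38.p6. What the authors deposited is a table of estimated counts by gene symbol, of which 35.7% to 37.9% per tumour were not whole. The sources used here do not give the annotation, the step from transcripts to genes or the strand setting. Of the symbols, 26 had become dates and held 0.227% of the counts.

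Estimated counts were rounded, filtered with filterByExpr, scaled by TMM and tested across all genes with the edgeR 4.0.16 quasi-likelihood test with robust estimates (R 4.3.3), 6 tumours per group with no covariate, Benjamini-Hochberg adjusted over 17940 genes at 0.05. The biological coefficient of variation was 0.193. CPM are TMM-normalised, log2 CPM use a prior count of 2, and the SE of a log2 fold change was derived from its size and F. DESeq2 1.42.0 and limma 3.58.1 were alternatives, and the script was tested on simulated data. Coordinates come from GENCODE M21 on GRCm38, and the length of a gene is that of its longest coding transcript there. Within-group pairs of libraries differed by 8.46 to 65.5 times the counting noise (chi-square over degrees of freedom, 30 pairs), so none was a copy of another.

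The 32 genes and all lists were chosen with earlier results of these data known. By rule, values in every tumour are given for the 2 genes of each role with the smallest p, since none was called, and of each pathway list the called genes, or else the 2 with the smallest p, are named. Promoters were to be shown for up to 6 genes, those with the smallest p and Hif1a. Other genes given in full, and the promoters of Bnip3, Egln3 and Pgk1 in place of others, were chosen after their values were seen.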

Additional observations from a re-analysis of the deposited data

Results flagged for a closer look

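Among 78 groups of 6 values (the 32 genes, the 5 related genes that rose, Cd4 and the library total, each by treatment), 10 held a tumour that stood apart by Dixon's test at the 95% level, which compares the gap to the nearest other tumour with the group's range. Chance alone marks about 0.05 of independent groups of normally distributed values. These groups are not independent, because many of the genes varied together among tumours, so the count cannot be judged against that share. In PBS 4 the high values were Bnip3 at 73.6 CPM (other PBS tumours 21.7 to 34.8), Ero1l at 180.1 CPM (70.0 to 104), P4ha2 at 17.9 CPM (6.55 to 9.80) and Ankrd37 at 3.41 CPM (1.151 to 1.92). High values of anti-CD4 4 were Egln3 at 29.8 CPM (other anti-CD4 tumours 13.8 to 19.8) and Bhlhe40 at 119 CPM (92.8 to 99.7). PBS 1 was high for Tpi1 at 439 CPM (306 to 338) and Pkm at 941 CPM (775 to 791). Among the related genes that rose, Arnt was low in anti-CD4 3 at 129.8 CPM (137 to 139.7) and Pdha1 low in anti-CD4 1 at 156 CPM (167 to 173).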

How the results depend on the processing

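Depth sufficed to test all 32 genes. Those called higher numbered 0 and called lower 0, and stayed at 0 and 0 with RLE or upper quartile scaling, DESeq2, other filters, thinned counts, covariates, copies summed (added after seeing the data) and without both PBS 4 and anti-CD4 4 (also added). limma voom with sample weights gave 2 higher and 3 lower. Leaving out both anti-CD4 3 and 4 gave 4 lower (Hk2, Pfkp, Pfkfb3 and Slc16a3), where 705 of all genes were called lower. That setting was chosen with earlier results of these data known. The highest anti-CD4 value of each of these 4 genes lay in anti-CD4 3 or 4, so the calls are no independent support. Leaving out 1 tumour at a time gave 0 to 1 higher (Pgam1 without PBS 1) and 0 to 1 lower (Pfkfb3 without anti-CD4 4). Over all genes, the fit without PBS 1 called 1160 higher and the fit without anti-CD4 4 called 358 lower. Of 832 gene-by-setting values, 61 changed sign, none of them of a called value, in 21 of 32 genes. The cause was not tested.

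Over all genes, 529 were called higher and 418 lower. The counts were 1349 and 1187 with DESeq2, 2809 and 3169 with limma voom, 272 and 251 with no filter, 0 and 5 with the library total as a covariate and 917 and 779 with muscle markers as a covariate. Upper quartile scaling gave 179 higher and 325 lower, so that 35.5% of calls were higher against 55.9%. Without both PBS 4 and anti-CD4 4, 322 were higher, and without both anti-CD4 3 and 4, 705 were lower. Leave-one-out counts ran from 29 (without anti-CD4 2) to 1160 (without PBS 1) higher and from 31 (without anti-CD4 5) to 1480 (without PBS 1) lower. Every tumour except PBS 4 moved at least 1 of the 2 counts by over 1.5 times, while the counts of the 32 genes stayed as given above. Cd4 kept its call in every setting, with adjusted p up to 0.0495. With the replicate number as a block, 19 genes were higher and 14 lower, and 0 of the 32 or of the 5 related genes. Same-numbered tumours correlated at -0.41 to 0.23 in their deviations from the group means, no tumour matched its own number best, and the numbers were not taken as pairs.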

Other observations

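Muscle forms of the glycolytic enzymes, which lie outside the 32 genes and were picked after their values were seen, differed widely between tumours. Eno3, the muscle enolase, stood at 24.3, 39.9, 19.04, 42.6, 59.7 and 18.2 CPM in PBS tumours 1 to 6 and at 52.3, 27.9, 33.5, 69.2, 24.3 and 28.8 CPM in anti-CD4 tumours 1 to 6. PBS 5 and anti-CD4 4, the tumours with the highest muscle marker sums of their groups, also had the highest Eno3, and held 1703 and 1823 CPM of muscle markers. Pgam2, the muscle phosphoglycerate mutase, ranged from 3.61 to 14.8 CPM in PBS tumours (median 6.31) and from 4.78 to 15.6 CPM in anti-CD4 tumours (median 6.43), and Pfkm, the muscle phosphofructokinase, from 27.3 to 59.4 CPM in PBS tumours (median 40.8) and from 38.6 to 71.7 CPM in anti-CD4 tumours (median 47.3). Neither passed the test between groups (edgeR adjusted p = 0.835 and 0.466), nor did Eno3 (edgeR adjusted p = 0.722).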
